A study of Homo sapiens with 20 samples.

Results

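The genes described here encode ion channels and proteins that move calcium, in A549 cells, a human lung adenocarcinoma epithelial cell line. Members were chosen by gene name: potassium channels and their partners (KCN with a family letter and a number), TRP channels of the A, C, M and V families, voltage-gated calcium and sodium channel subunits (CACN, SCN), CLC proteins (CLCN), anoctamins (ANO), the store-operated entry genes ORAI and STIM, the IP3 receptors ITPR1 to ITPR3, the calcium pumps ATP2A, ATP2B and ATP2C, and the potassium channel partners LRRC26 and LRRC38. Of 198 genes with such a name, 90 reached 0.1 FPKM (fragments scaled to transcript length and library depth) in 4 or more of the 20 libraries, out of 20094 genes of any kind that did so. The other names were below that level, so every count here is over these 90 members and not over all channel genes of the genome.

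The question the design addresses is how extracellular ATP (eATP) acts on these cells beside TGF-β, a cytokine known to drive epithelial cells towards a mesenchymal state. There were 5 conditions, and the labels give 4 libraries for each (the paper's text speaks of fewer replicates, and the labels were followed): cells given 10 ng/mL TGF-β for 6 h or for 2 h, cells given 0.5 mM eATP for 6 h or for 2 h, and untreated control cells, for which the labels give no collection time. All were the same line in the same medium with serum, and poly(A) RNA was sequenced with a stranded protocol. The labels number the libraries but do not say that they came from separate cultures, so the p-values rest on the scatter among 4 libraries a group and may hold technical scatter alone. In a culture, fewer cells of a kind and less RNA per cell cannot be told apart.

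Ion channels let ions cross membranes along their gradients, and pumps and exchangers build those gradients. Potassium channels that are open at rest hold the membrane negative inside, which draws calcium in through open calcium-permeable channels, and calcium-activated potassium channels open when calcium rises. Extracellular ATP is known to act through P2 receptors, some of which are cation channels themselves and some of which, through phospholipase C and IP3, release calcium from the endoplasmic reticulum; STIM proteins sense the emptied store and open ORAI channels, SERCA pumps refill it, and PMCA pumps send calcium out of the cell. TGF-β is known to act through receptor kinases and SMAD proteins.

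The libraries held 56187614 to 75050437 counts each. The markers of A549 epithelium (8 of 8 genes measured) summed to 7310 to 9000 FPKM in every library, and the muscle markers were under 0.1 FPKM on average for 5 of 5 genes, with MYH1, MYH7 and DES at 0 counts everywhere. Replicate 1 of TGF-β at 2 h stood apart from its group (SD of its log2 deviations 0.595, against 0.292 to 0.388 in the other 19 libraries). It was the lowest of its 4 libraries for 47 of the 90 members, and its deviations ran against transcript length (r = -0.591 over 90 members, across genes that share 1 library, and -0.245 over 20039 genes). Replicate 3 of eATP at 6 h was the lowest of 4 for 43 members (r = -0.494) and replicate 3 of the controls for 42 (r = -0.192). Members were long genes by this measure, with a median longest transcript of 4732 bases against 2576 bases for all genes kept, and the part of these libraries in the results was not tested. Marker lists of other cell types moved with both inducers. The fibroblast markers (7 genes, 4 of them under 0.1 FPKM on average, with the sum mostly COL1A1) summed to 15.6 to 18.6 FPKM with TGF-β at 6 h, 7.01 to 7.76 with TGF-β at 2 h, 1.27 to 1.97 with eATP at 6 h and 2.17 to 2.71 with eATP at 2 h, against 1.79 to 2.28 in the controls, and COL1A2, DCN and PDGFRB were near 0. The neuron markers (4 genes, STMN2 at 0) summed to 12.3 to 13.7, 18.3 to 27.4, 20.8 to 22 and 28.2 to 32.1 FPKM in that order, against 20.2 to 21.9 in the controls. The endothelial markers (4 genes, 3 of them under 0.1 FPKM on average) summed to 0.0391 to 0.169, 0.128 to 0.239, 0.266 to 0.388 and 0.271 to 0.543 FPKM in the same order, against 0.091 to 0.177 in the controls, and the blood cell markers (5 genes, 3 under 0.1 FPKM on average) to 1.68 to 2.5, 3.1 to 5.71, 1.26 to 2.56 and 3.27 to 4.09, against 2.28 to 3.29. Their part in the results was not tested.

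In untreated cells most members were weakly expressed. The mean control level was under 0.1 FPKM for 12 members, from 0.1 to under 1 FPKM for 43, from 1 to under 10 FPKM for 31, and 10 FPKM or more for 4, with a median of 0.67 FPKM against 1.68 FPKM over all genes. The 10 highest in the controls were mostly calcium store and housekeeping membrane proteins: the SERCA pump ATP2A2 (40.8 ± 5.14 FPKM, mean ± SD, n = 4 libraries as in all values below), the PMCA pump ATP2B1 (19.7 ± 2.36), the lipid scramblase ANO6 (17.5 ± 3.07), the Golgi calcium and manganese pump ATP2C1 (10.4 ± 0.893), the store-operated pore ORAI1 (7.19 ± 0.138), the endosomal chloride-proton exchanger CLCN3 (7.16 ± 1.44), the channel-kinase TRPM7 (7.15 ± 1.79), the IP3 receptor ITPR3 (7.08 ± 1.11), the potassium channel KCNK1 (6.45 ± 0.598) and ANO10 (5.89 ± 0.245). ORAI1, CLCN3, TRPM7 and ITPR3 lay within each other's spread. Voltage-gated potassium pore genes were low, and the highest of the 15 in the controls, KCNF1 (3.59 ± 0.244 FPKM), encodes a subunit that forms no channel on its own.

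**Figure D1:**
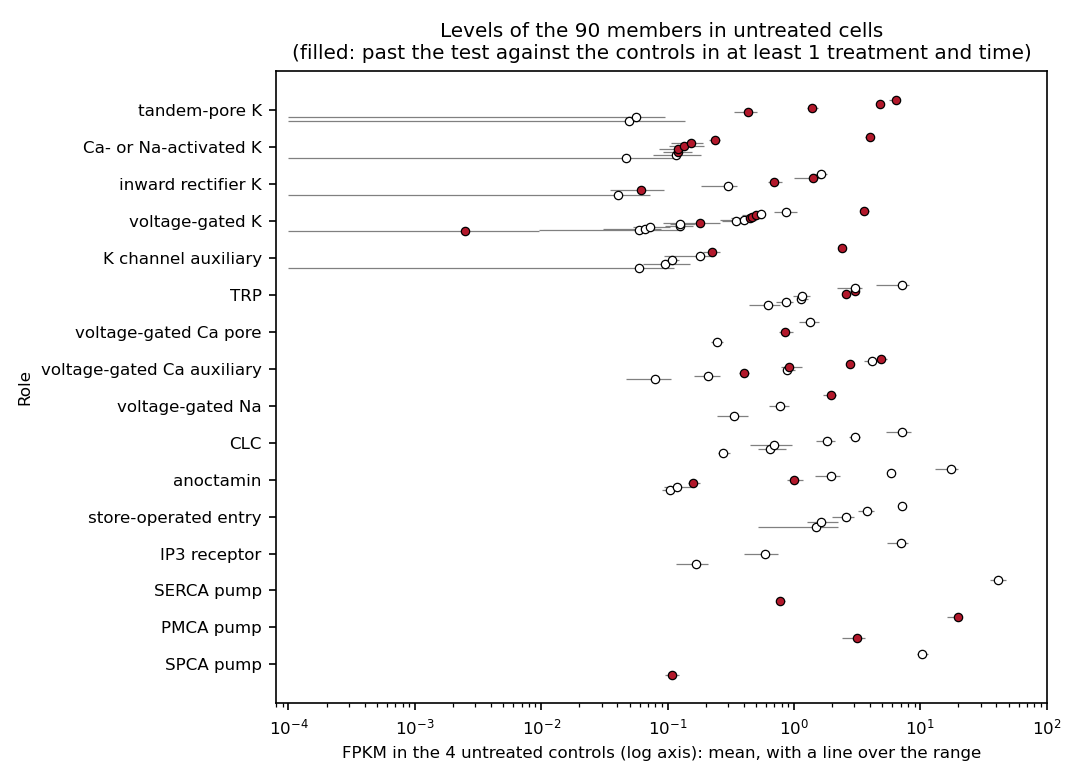
Levels of the 90 members in the 4 untreated libraries by role, in FPKM on a log axis: each point is a gene's mean, each line its range, and filled points are genes past the test against the controls for at least 1 treatment and time. ATP2A2 lies furthest to the right at 40.8 FPKM, and 55 of the 90 members lie under 1 FPKM, among them the pump genes ATP2A3 (0.769) and ATP2C2 (0.108); libraries with no count are listed at 0.0001 FPKM in the files.

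The sequence before the RefSeq start is shown for 4 members, chosen after their values were seen because all 4 libraries of at least 1 treatment stood clear of the controls: KCNK5, KCNJ2 and TRPC6, which were lower with TGF-β, and KCNF1, which was higher with eATP. These changes were not all confined to 1 inducer. KCNK5 was also lower with eATP at 2 h, KCNF1 higher with TGF-β at 2 h and TRPC6 higher with eATP at 6 h. The windows are the 250 bases before the RefSeq gene start on build GRCh38.p14, read 5′ to 3′ on the gene's strand; 67 of the 90 members had an entry. GENCODE v29 starts KCNJ2 and TRPC6 further upstream, so all 250 bases of these 2 windows lie inside the GENCODE gene, with 0 bases in its exons. Capitals mark matches on either strand to 4 short motifs, searched by their letters alone: CAGAC (a core bound by SMAD proteins), TGANTCA (AP-1), TGACGTCA (the cAMP response element) and GGAAA (the NFAT core). The 4 motifs do not overlap in the windows shown. A match is a description of letters and not a bound site.

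KCNK5 (chr6:39229476-39229725, minus strand): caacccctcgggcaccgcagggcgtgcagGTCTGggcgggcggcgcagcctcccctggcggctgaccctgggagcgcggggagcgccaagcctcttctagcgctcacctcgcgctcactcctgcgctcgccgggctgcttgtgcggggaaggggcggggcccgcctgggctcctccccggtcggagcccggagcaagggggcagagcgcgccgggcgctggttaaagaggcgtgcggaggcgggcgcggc
KCNJ2 (chr17:70169282-70169531, plus strand): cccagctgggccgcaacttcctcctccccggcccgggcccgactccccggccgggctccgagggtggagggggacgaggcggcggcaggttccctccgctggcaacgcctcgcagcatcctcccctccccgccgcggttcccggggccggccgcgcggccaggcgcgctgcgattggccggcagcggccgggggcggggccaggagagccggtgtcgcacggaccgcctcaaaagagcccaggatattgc
TRPC6 (chr11:101584008-101584257, minus strand): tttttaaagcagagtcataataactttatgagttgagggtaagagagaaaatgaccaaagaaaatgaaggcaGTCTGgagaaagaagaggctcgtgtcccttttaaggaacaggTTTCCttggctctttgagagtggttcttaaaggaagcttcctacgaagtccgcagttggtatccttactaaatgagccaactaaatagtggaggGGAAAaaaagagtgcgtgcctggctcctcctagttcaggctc
KCNF1 (chr2:10911684-10911933, plus strand): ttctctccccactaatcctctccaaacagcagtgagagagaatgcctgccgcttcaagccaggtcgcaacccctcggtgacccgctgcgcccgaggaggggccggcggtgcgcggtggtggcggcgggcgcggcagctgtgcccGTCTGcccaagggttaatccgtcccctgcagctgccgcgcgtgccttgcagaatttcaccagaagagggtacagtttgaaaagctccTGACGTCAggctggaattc

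CAGAC occurred once in the KCNK5, TRPC6 and KCNF1 windows and nowhere in the KCNJ2 window. It occurs in 37.8% of all 27305 promoter windows of this length and in 29 of the 67 member windows (43.3%). KCNF1 alone of the 4 held the cAMP response element, near the start, against 1.77% of all windows and 2 of the 67 members. GGAAA occurred at 2 places in the TRPC6 window, and in 56% of all windows against 43.3% of the member windows. No AP-1 match lay in the 4 windows (6.6% of all windows). The windows differed widely in composition, from 43.2% G and C for TRPC6 to 77.6% for KCNJ2.

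Against the untreated controls, 35 of the 90 members (38.9%) were past the test in at least 1 of the 4 treatments and times, against 24.9% of all 20094 genes. Called here means an adjusted p under 0.05 in edgeR's quasi-likelihood test, fitted over all genes and all 20 libraries. TGF-β at 6 h had 8 members higher and 12 lower, where 8.4% of all genes were higher and 7.76% lower. At 2 h TGF-β had 16 higher and 8 lower (7.25% and 5.67% of all genes). eATP at 6 h had 7 higher and 3 lower (1.71% and 1.28%), and at 2 h 10 higher and 4 lower (4.79% and 3.79%). As shares of the 90 members these are 8.89% and 13.3%, 17.8% and 8.89%, 7.78% and 3.33%, and 11.1% and 4.44%. The higher share with TGF-β at 6 h (8.89% against 8.4%) and the lower share with eATP at 2 h (4.44% against 3.79%) were near the background and say nothing about the members. Median log2 fold changes of the members stayed within 0.12 of zero in the 4 comparisons (-0.06, 0.12, -0.01 and 0.07, against -0.01, 0.02, -0.01 and -0.01 for all genes). The 4 comparisons share the same 4 control libraries. Without replicate 1 of TGF-β at 2 h the members called were 25, 22, 12 and 18, in place of 20, 24, 10 and 14.

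**Figure D2:**
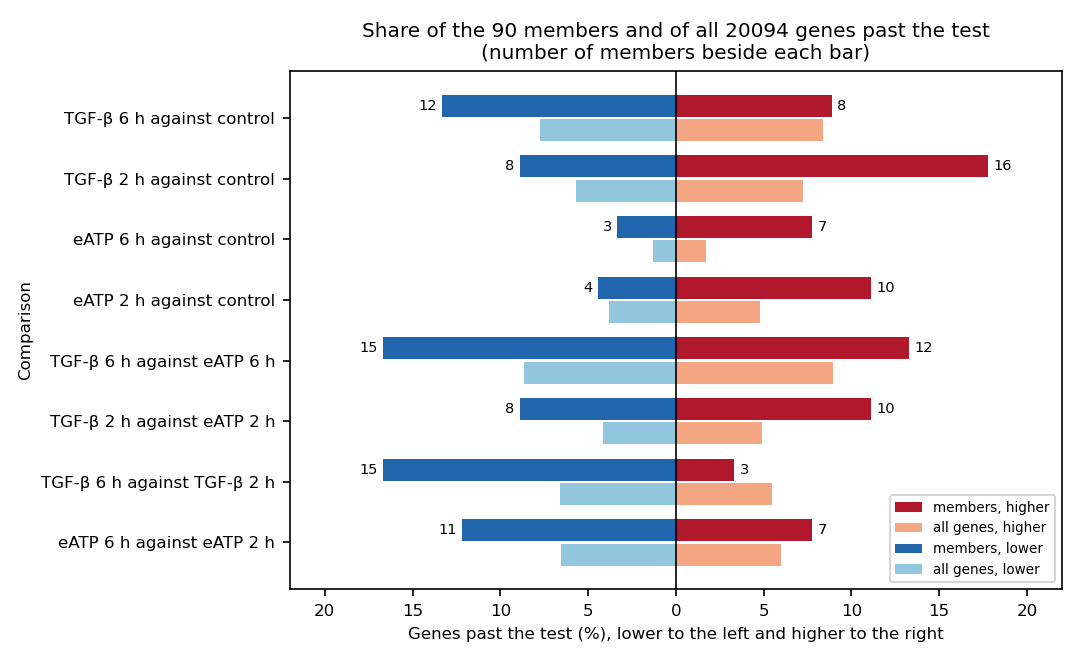
Share of genes past the test in 8 comparisons, in percent, lower to the left and higher to the right: dark bars are the 90 members, with their number, and pale bars all 20094 genes. The member bars are longest for TGF-β at 2 h (16 higher) and for genes lower at 6 h than at 2 h of TGF-β (15).

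LRRC38, encoding an auxiliary gamma subunit of the large-conductance calcium-activated potassium (BK) channel, and CACNG4, encoding a transmembrane protein of the calcium channel gamma family that is best known as a partner of AMPA receptors, were called in all 4 comparisons. KCNK1, KCNK5, KCNF1, KCNN1, TRPC6 and ATP2B1 were called in 3, 15 members in 2 and 12 members in 1. In all, 8 members were called in opposite directions in at least a pair of the comparisons: KCNK1, KCNK3, CACNG4, TRPC6, TRPA1, ATP2A3, ATP2B1 and ATP2B4. The shares of all genes for these counts were not computed, so the counts say nothing about the members as a set. The 4 calls of LRRC38 were known beforehand from the paper. Among the 8, the eATP calls of TRPA1 at 2 h and of ATP2A3 and ATP2B4 at 6 h were lost without most of the compared libraries in turn. The tests between the inducers given below compare them at the same time only. KCNK3, TRPA1 and ATP2A3 had their opposite calls at different times, so those tests do not address these calls directly. ATP2A3 did not differ between the inducers past the test at either time.

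**Figure D3:**
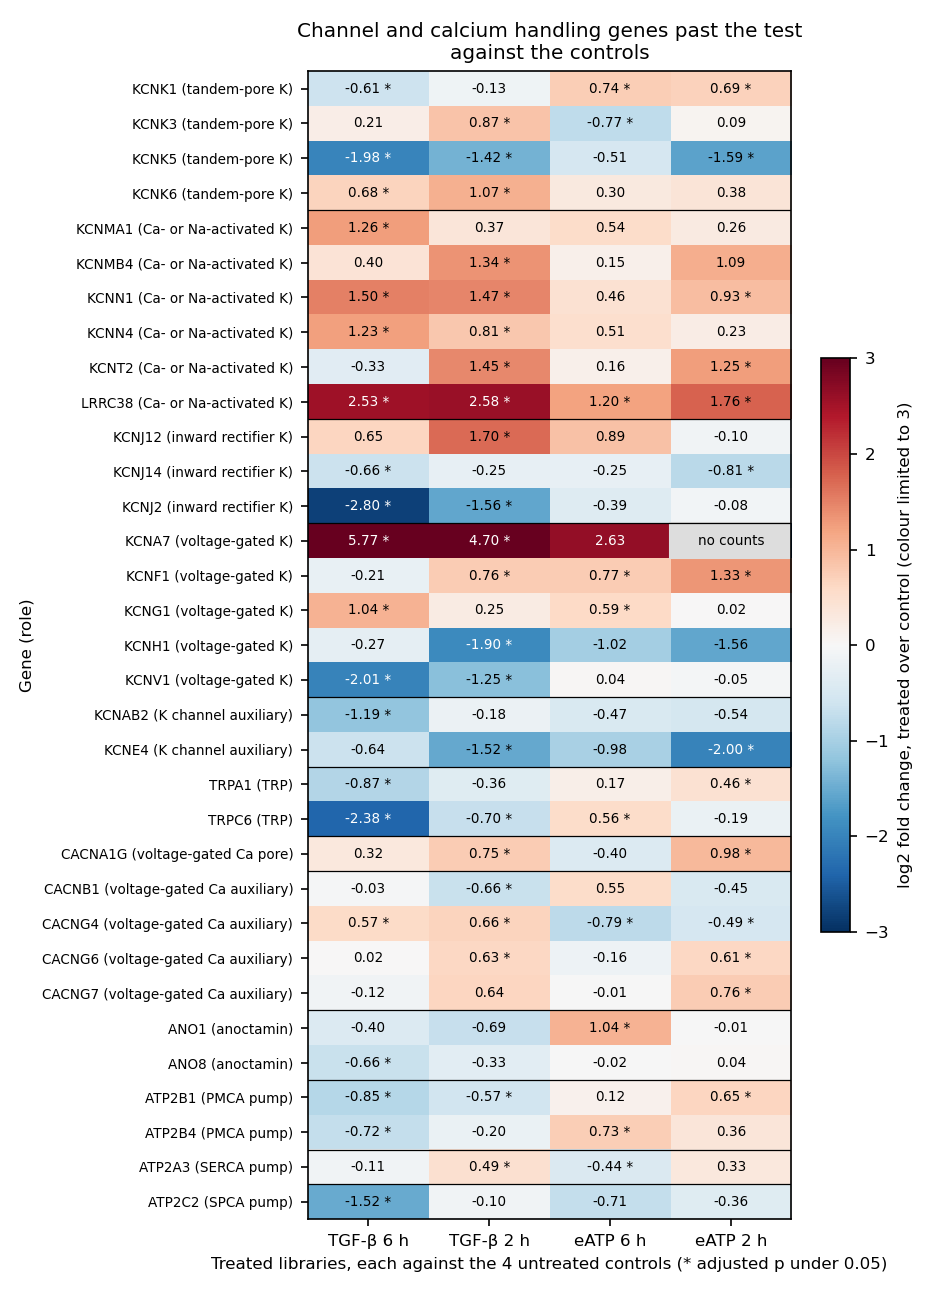
Log2 fold changes of 33 of the 35 members past the test against the controls (rows, by role) in the 4 treatments (columns), red for higher and blue for lower in treated cells, with an asterisk at adjusted p under 0.05. LRRC38 is red in all 4 columns, from 1.20 to 2.58, and KCNJ2 and KCNV1 are past the test, in blue, with TGF-β and not with eATP; the colour is limited to 3, and KCNA7 had no counts with eATP at 2 h.

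Among the tandem-pore (K2P) potassium channels, which are open at rest and set the resting potential, 4 of 6 members were called in at least 1 comparison with the controls (66.7%, against 24.9% of all genes, the share to set beside each role's count below). The widest change was in KCNK5, encoding the pH-sensitive channel TASK-2 that takes part in volume regulation. Its libraries held 1.34, 1.51, 0.944 and 0.802 FPKM with TGF-β at 6 h, 1.93, 1.95, 1.62 and 1.58 with TGF-β at 2 h, 3.28, 3.33, 3.42 and 3.24 with eATP at 6 h and 1.5, 1.74, 1.51 and 1.52 with eATP at 2 h, against 4.91, 4.44, 4.86 and 5.02 FPKM in the controls. All 16 treated libraries lay below all 4 controls, and the eATP libraries at 6 h lay between those at 2 h and the controls with no overlap on either side. The log2 fold changes against the controls were -1.98 ± 0.16 (SE; adjusted p = 3.59e-08) with TGF-β at 6 h, -1.42 ± 0.16 (3.91e-06) with TGF-β at 2 h and -1.59 ± 0.16 (1.34e-06) with eATP at 2 h. With eATP at 6 h the value was -0.51 ± 0.15, which did not pass (adjusted p = 0.0882).

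KCNK1, encoding the weak inward rectifier TWIK-1, moved apart under the inducers. Its libraries held 4.18, 4.12, 3.95 and 3.75 FPKM with TGF-β at 6 h, 5.65, 5.58, 5.72 and 6.18 with TGF-β at 2 h, 10.7, 10.5, 12.1 and 9.14 with eATP at 6 h and 10.7, 9.46, 9.99 and 10.8 with eATP at 2 h, against 6.46, 6.85, 6.89 and 5.60 in the controls. No eATP library overlapped a control at either time, and all TGF-β libraries at 6 h lay below the controls. It fell with TGF-β at 6 h (-0.61 ± 0.09 log2, adjusted p = 7.71e-05) and rose with eATP at 6 h (0.74 ± 0.09, 9.37e-05) and 2 h (0.69 ± 0.09, 4.6e-05).

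KCNK6, encoding TWIK-2, rose with TGF-β, with 2.09, 1.98, 2.40 and 1.94 FPKM at 6 h and 3.56, 2.44, 2.74 and 2.68 at 2 h, against 1.54, 1.44, 1.26 and 1.32 in the controls. Both groups lay wholly above the controls, with log2 fold changes of 0.68 ± 0.13 (adjusted p = 0.000931) at 6 h and 1.07 ± 0.13 (1.28e-05) at 2 h. With eATP it stood at 1.68 ± 0.16 FPKM at 6 h and 1.78 ± 0.175 at 2 h, and neither passed (adjusted p = 0.309 and 0.0815). KCNK3, encoding the acid-sensitive background channel TASK-1, was lower in level and turned with time: 0.472 ± 0.0501 FPKM with TGF-β at 6 h, 0.774 ± 0.0221 with TGF-β at 2 h, 0.248 ± 0.0462 with eATP at 6 h and 0.452 ± 0.0727 with eATP at 2 h, against 0.432 ± 0.0824 in the controls. It rose with TGF-β at 2 h (0.87 ± 0.16 log2, adjusted p = 0.000969) and fell with eATP at 6 h (-0.77 ± 0.16, 0.0109). The second call did not hold without control replicate 1 (adjusted p = 0.0515) or when only its 2 groups entered the fit. KCNK7 and KCNK15 were at or below 0.104 FPKM in every group's mean and were not called.

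**Figure D4:**
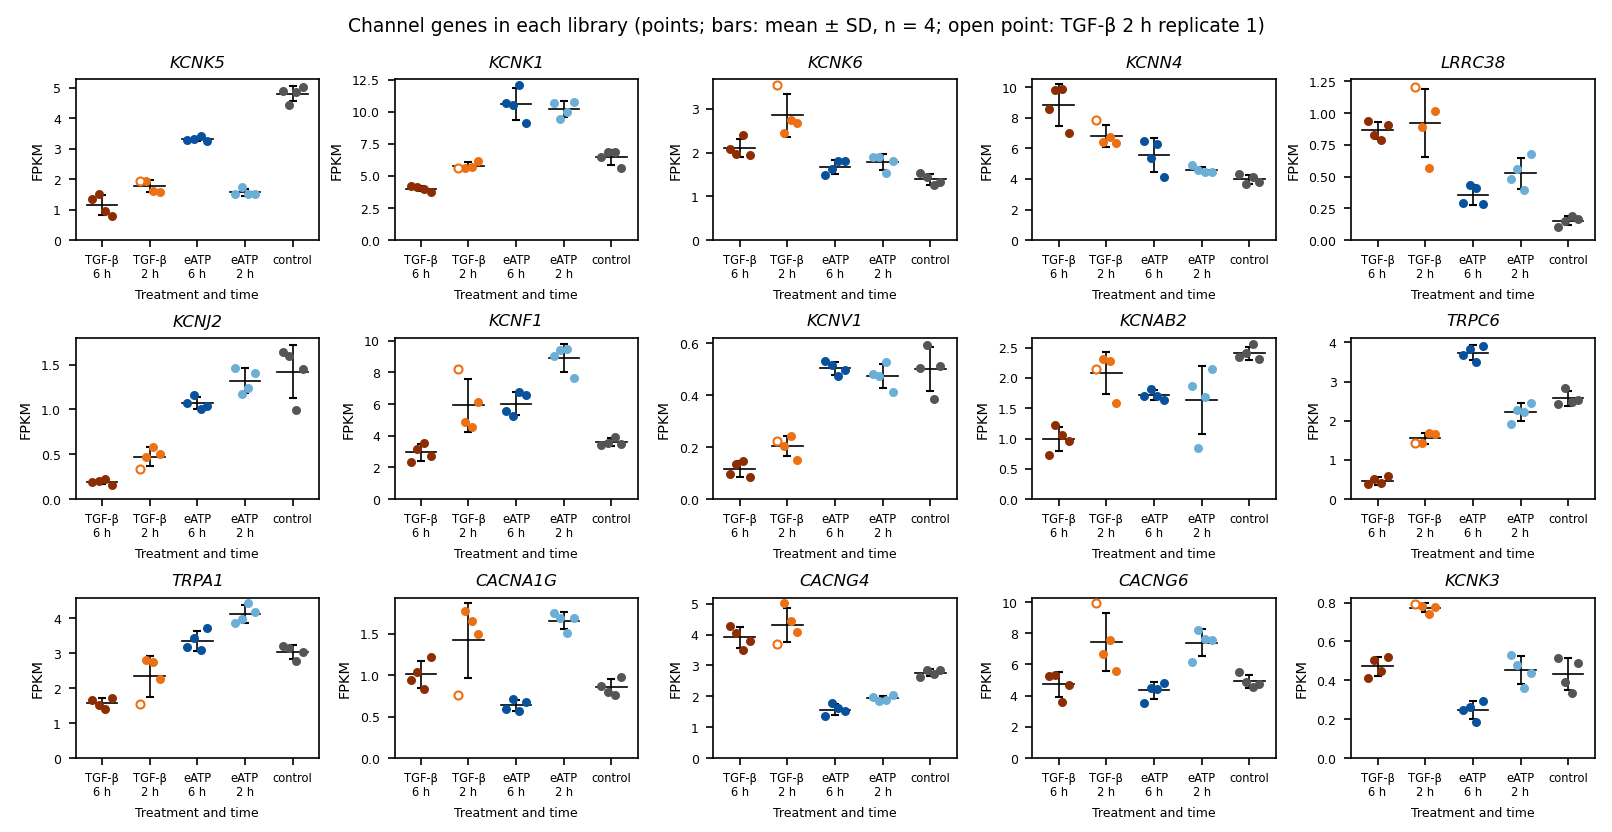
FPKM of 15 channel genes in each of the 20 libraries (points), with the mean and SD of each group of 4 (lines) and replicate 1 of TGF-β at 2 h as an open point; each vertical axis starts at 0. KCNK5 lies under the controls in all 16 treated libraries, while KCNK1, TRPC6 and CACNG4 part between the TGF-β and eATP libraries.

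Of the 8 calcium-activated and sodium-activated potassium channel genes and partners, 6 were called (75%, against 24.9% of all genes), all of them higher in at least 1 treatment and none lower against the controls in any. KCNN4, encoding the intermediate-conductance channel KCa3.1 that calcium opens through calmodulin, was the highest of them. It reached 8.59, 9.81, 9.91 and 7.01 FPKM with TGF-β at 6 h and 7.87, 6.39, 6.73 and 6.34 at 2 h, against 4.33, 3.65, 4.11 and 3.80 in the controls. Both TGF-β groups lay wholly above the controls, with log2 fold changes of 1.23 ± 0.14 (adjusted p = 3.38e-06) at 6 h and 0.81 ± 0.14 (0.000525) at 2 h. With eATP the libraries held 6.49, 5.37, 6.29 and 4.12 FPKM at 6 h and 4.89, 4.61, 4.48 and 4.44 at 2 h, and neither passed (adjusted p = 0.0581 and 0.406). LRRC38 was scarcer and moved further. It was added to the members by its own name, and the paper lists it as upregulated by both inducers at both times. Its calls were thus known beforehand, and it counts among the 6 called here. Its libraries held 0.936, 0.831, 0.789 and 0.906 FPKM with TGF-β at 6 h, 1.21, 0.893, 0.569 and 1.02 with TGF-β at 2 h, 0.290, 0.431, 0.409 and 0.288 with eATP at 6 h and 0.480, 0.557, 0.393 and 0.680 with eATP at 2 h, against 0.107, 0.150, 0.192 and 0.167 in the controls. Every treated library lay above every control. The log2 fold changes were 2.53 ± 0.26 (adjusted p = 9.82e-07), 2.58 ± 0.26 (1.43e-06), 1.20 ± 0.26 (0.0131) and 1.76 ± 0.26 (0.000134) in that order; the call with eATP at 6 h was lost in limma on log2(FPKM + 1) and when only its 2 groups entered the fit.

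The BK pore gene KCNMA1 rose with TGF-β at 6 h, to 0.535 ± 0.123 FPKM against 0.236 ± 0.022 in the controls (1.26 ± 0.25 log2, adjusted p = 0.00129), with all 4 libraries above the controls. Its brain-type partner KCNMB4 rose with TGF-β at 2 h (0.300 ± 0.175 FPKM against 0.121 ± 0.0269; 1.34 ± 0.36 log2, adjusted p = 0.0179). That group was uneven, with 0.530, 0.342, 0.163 and 0.163 FPKM, and the call did not hold without its replicate 1 or without control replicate 1 (adjusted p up to 0.0843), nor when only its 2 groups entered the fit. With eATP at 2 h KCNMB4 held 0.218, 0.279, 0.26 and 0.261 FPKM, all above the controls, and was not called. KCNN1, encoding the small-conductance channel SK1, rose with TGF-β at 6 h (1.5 ± 0.29 log2, adjusted p = 0.000861) and 2 h (1.47 ± 0.28, 0.00149) and with eATP at 2 h (0.93 ± 0.28, 0.0484), where the controls were at 0.121 ± 0.0266 FPKM. The eATP call held without control replicate 4 but was lost without each of the other 7 libraries in turn (adjusted p up to 0.145). It was also lost under 4 other settings. KCNT2, encoding the sodium-activated channel Slick, rose at 2 h with both inducers, by 1.45 ± 0.35 log2 with TGF-β (adjusted p = 0.00822) and 1.25 ± 0.35 with eATP (0.0284). The TGF-β call was lost when only its 2 groups entered the fit. Its level at 6 h was 0.102 ± 0.026 FPKM with TGF-β and 0.150 ± 0.0418 with eATP, against 0.136 ± 0.0394 in the controls. The eATP call held without eATP 2 h replicate 2 or control replicate 4 and was lost without each of the other 6 libraries (adjusted p up to 0.0933). It was also lost in both limma fits. In replicate 1 of TGF-β at 2 h KCNT2 was at 0.120 FPKM, within the controls. LRRC26 and KCNMB3 were not called.

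Inward rectifiers pass potassium more easily into the cell than out and hold the membrane near the potassium potential. KCNJ2, encoding Kir2.1, fell with TGF-β, at 6 h by the widest margin among the members at 1 FPKM or more in the controls. Its libraries held 0.185, 0.197, 0.220 and 0.161 FPKM with TGF-β at 6 h and 0.334, 0.465, 0.583 and 0.508 at 2 h, against 1.64, 1.59, 0.993 and 1.45 in the controls. Neither group overlapped the controls or the other, and the log2 fold changes were -2.80 ± 0.17 (adjusted p = 1.32e-09) at 6 h and -1.56 ± 0.17 (2.43e-06) at 2 h. With eATP it stood at 1.07 ± 0.0659 FPKM at 6 h and 1.32 ± 0.14 at 2 h, overlapping the controls, with log2 values of -0.39 ± 0.16 and -0.08 ± 0.16 that did not pass (adjusted p = 0.286 and 0.885). The antisense gene KCNJ2-AS1, whose longest single exon overlap with KCNJ2 is 185 bases, averaged 0.167 FPKM over the libraries.

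KCNJ12, encoding Kir2.2, rose with TGF-β at 2 h alone among the 4, to 0.203 ± 0.0903 FPKM against 0.062 ± 0.0277 in the controls (1.70 ± 0.38 log2, adjusted p = 0.00463); its coding sequence is nearly that of KCNJ18, so reads could have been split between them and its level is uncertain. KCNJ14, encoding Kir2.4, fell with TGF-β at 6 h (-0.66 ± 0.18 log2, adjusted p = 0.0192) and with eATP at 2 h (-0.81 ± 0.19, 0.0078). Its longest single exon overlap with GRWD1, on the same strand, is 350 bases, and GRWD1 averaged 17.2 FPKM against 0.533 FPKM for KCNJ14. The TGF-β call of KCNJ14 did not hold without TGF-β 6 h replicate 2 or 4 or without control replicate 4 (adjusted p up to 0.0616). KCNJ16, encoding Kir5.1 and named here after its values were seen, was not called against the controls (1.65 ± 0.197 FPKM), but its 4 eATP libraries at 6 h held only 0.857, 0.710, 0.655 and 0.677 FPKM and lay below all controls (-1.17 ± 0.34 log2, adjusted p = 0.0735).

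Of the 15 voltage-gated potassium pore genes 6 were called (40%, against 24.9% of all genes), and 3 of these, KCNF1, KCNG1 and KCNV1, encode the silent Kv5, Kv6 and Kv8 subunits, which make channels only together with Kv2 subunits and change how those gate. KCNF1 (Kv5.1) was the most abundant and rose with eATP. Its libraries held 5.56, 5.25, 6.74 and 6.55 FPKM with eATP at 6 h and 9.03, 9.45, 9.51 and 7.66 at 2 h, against 3.42, 3.53, 3.95 and 3.47 in the controls. All 8 lay above the controls, with log2 fold changes of 0.77 ± 0.18 (adjusted p = 0.0211) at 6 h and 1.33 ± 0.18 (5.15e-05) at 2 h. The 6 h call held without eATP 6 h replicate 1 or 2 or control replicate 3, and was lost without each of the other 5 libraries (adjusted p up to 0.0661). With TGF-β the libraries held 2.36, 3.14, 3.57 and 2.71 FPKM at 6 h, overlapping the controls (-0.21 ± 0.18, adjusted p = 0.508), and 8.24, 4.87, 4.54 and 6.11 at 2 h, above them (0.76 ± 0.18, 0.0069), a call lost when only those 2 groups entered the fit. Replicate 1 was the highest of those 4.

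KCNG1 (Kv6.1) rose at 6 h, to 0.902 ± 0.0735 FPKM with TGF-β (1.04 ± 0.14 log2, adjusted p = 1.82e-05) and 0.685 ± 0.137 FPKM with eATP (0.59 ± 0.14, 0.0219), against 0.463 ± 0.0322 FPKM in the controls. The eATP call was lost without eATP 6 h replicate 3 or control replicate 2, 3 or 4 (adjusted p up to 0.0743), and under 3 other settings. KCNV1 (Kv8.1), on chromosome 8, fell with TGF-β, to 0.116 ± 0.0301 FPKM at 6 h (-2.01 ± 0.19 log2, adjusted p = 3.32e-07) and 0.205 ± 0.0396 at 2 h (-1.25 ± 0.19, 0.000116), against 0.500 ± 0.0852 FPKM in the controls. All 8 TGF-β libraries lay below the controls. With eATP its libraries held 0.413 to 0.530 FPKM over both times and overlapped them.

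KCNA7, encoding the Shaker-type channel Kv1.7, was close to silent outside TGF-β. It reached the 0.1 FPKM of the filter in TGF-β libraries alone, so it is a member only through the libraries where it was high. Its ratios and tests, here and against eATP below, are therefore description and no independent support. The counts of members higher with TGF-β include it. It had 63, 37, 62 and 44 counts with TGF-β at 6 h, 24, 6, 53 and 32 with TGF-β at 2 h, 8, 0, 8 and 12 with eATP at 6 h and none in the 4 libraries with eATP at 2 h, against 0, 0, 4 and 0 in the controls. As ratios of count shares these are 56.7-fold (95% exact interval 21.8 to 210) over the controls at 6 h and 28.5-fold (10.8 to 106) at 2 h of TGF-β, with intervals that cover counting error only. The tests passed (adjusted p = 0.00185 and 0.00969), the second one not in limma on log2(FPKM + 1) nor when only its 2 groups entered the fit. KCNH1, encoding the ether-a-go-go channel Kv10.1, fell with TGF-β at 2 h (-1.90 ± 0.56 log2, adjusted p = 0.0308). The call was lost without TGF-β 2 h replicate 1 or 4 or control replicate 1 or 2 (adjusted p up to 0.0798), and under 1 other setting. With eATP at 2 h KCNH1 was not called, though its libraries (0.149 ± 0.0743 FPKM) all lay below the controls (0.447 ± 0.129). The longest single exon overlap of KCNH1 with a gene on the other strand is 3618 bases. In this group 9 members were not called.

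Of the 6 potassium channel auxiliary genes, 2 were called (33.3%, near the 24.9% of all genes). KCNAB2, encoding the Kv beta-2 subunit, fell with TGF-β at 6 h, to 0.734, 1.22, 1.06 and 0.962 FPKM against 2.34, 2.41, 2.56 and 2.31 in the controls. The groups did not overlap (-1.19 ± 0.21 log2, adjusted p = 0.000436). It was at 2.08 ± 0.346 FPKM with TGF-β at 2 h, 1.71 ± 0.0754 with eATP at 6 h and 1.63 ± 0.559 with eATP at 2 h, none of which passed. KCNE4, encoding a single-span subunit that restrains KCNQ1 and Kv1 channels, fell at 2 h with both inducers, to 0.0754 ± 0.0293 FPKM with TGF-β (-1.52 ± 0.39 log2, adjusted p = 0.0137) and 0.0537 ± 0.0296 with eATP (-2.0 ± 0.40, 0.00281), against 0.225 ± 0.0345 FPKM in the controls. All 8 libraries lay below the controls. At 6 h KCNE4 was at 0.137 ± 0.032 FPKM with TGF-β and 0.111 ± 0.0458 with eATP. Those libraries too all lay below the controls, and neither group was called.

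TRP channels are cation channels, most of them permeable to calcium, and 2 of the 8 members were called (25%, the background being 24.9% of all genes). TRPC6, which diacylglycerol opens downstream of phospholipase C, moved in opposite directions under the inducers. Its libraries held 0.373, 0.503, 0.410 and 0.588 FPKM with TGF-β at 6 h, 1.44, 1.42, 1.69 and 1.67 with TGF-β at 2 h, 3.69, 3.84, 3.49 and 3.92 with eATP at 6 h and 1.91, 2.27, 2.23 and 2.46 with eATP at 2 h, against 2.43, 2.85, 2.47 and 2.54 in the controls. TGF-β lay below the controls at both times and eATP above them at 6 h, with no overlap. It fell with TGF-β by 2.38 on the log2 scale at 6 h (SE 0.13, adjusted p = 1.79e-10) and by 0.70 at 2 h (SE 0.12, 0.000519), and rose with eATP at 6 h (0.56 ± 0.12, 0.0133). At 2 h of eATP it was not called (-0.19 ± 0.12, 0.439).

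TRPA1, the irritant-gated channel, fell with TGF-β at 6 h to 1.65, 1.52, 1.41 and 1.72 FPKM, against 3.20, 3.16, 2.77 and 3.03 in the controls. The groups were far apart (-0.87 ± 0.13 log2, adjusted p = 8.22e-05). At 2 h it had 1.54, 2.81, 2.76 and 2.25 FPKM with TGF-β (-0.36 ± 0.13, 0.0853) and 3.86, 3.97, 4.44 and 4.19 with eATP, all above the controls (0.46 ± 0.13, 0.0333). That last call held without eATP 2 h replicate 1 and was lost without each of the other 7 libraries (adjusted p up to 0.0983), and under 3 other settings. TRPM7 was not called, and its libraries were uneven: it was at 1.15 FPKM in replicate 1 of TGF-β at 2 h against 5.41 to 7.38 in the others of that group, and at 4.47 FPKM in control replicate 3 against 7.94 to 8.19 in the other controls.

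Voltage-gated calcium channels consist of a CACNA1 pore with auxiliary alpha-2-delta (CACNA2D) and beta (CACNB) subunits; the CACNG family holds gamma subunits and relatives. CACNA1G, the T-type pore Cav3.1, rose at 2 h. With eATP at 2 h its libraries held 1.75, 1.69, 1.51 and 1.69 FPKM, against 0.874, 0.802, 0.762 and 0.981 in the controls, with no overlap (0.98 ± 0.18 log2, adjusted p = 0.00134). With TGF-β at 2 h it was called too (0.75 ± 0.18, 0.00794), at 0.766, 1.77, 1.65 and 1.5 FPKM: replicate 1 lay at the foot of the control range and the other 3 above it, and the call was lost when only those 2 groups entered the fit. At 6 h it was at 1.01 ± 0.163 FPKM with TGF-β and 0.636 ± 0.0682 with eATP, and neither passed. The other T-type pore gene, CACNA1H, stayed between 1.00 and 1.43 FPKM in the group means and was not called.

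CACNG4 parted by inducer. Its libraries held 4.29, 4.05, 3.50 and 3.80 FPKM with TGF-β at 6 h, 3.71, 5.02, 4.43 and 4.07 with TGF-β at 2 h, 1.36, 1.78, 1.61 and 1.54 with eATP at 6 h and 1.98, 1.86, 1.87 and 2.03 with eATP at 2 h, against 2.64, 2.85, 2.74 and 2.85 in the controls. All 8 TGF-β libraries lay above the controls and all 8 eATP libraries below. It rose with TGF-β by 0.57 ± 0.10 log2 at 6 h (adjusted p = 0.000381) and 0.66 ± 0.10 at 2 h (0.000148), and fell with eATP at 6 h (-0.79 ± 0.10, 0.000117) and 2 h (-0.49 ± 0.10, 0.00314).

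CACNG6, the most abundant of the family, rose at 2 h with both inducers, to 9.97, 6.66, 7.55 and 5.58 FPKM with TGF-β (0.63 ± 0.17 log2, adjusted p = 0.0188) and 6.18, 8.22, 7.62 and 7.57 with eATP (0.61 ± 0.17, 0.0302), against 5.49, 4.90, 4.57 and 4.72 in the controls. All 8 libraries lay above the controls, but the TGF-β call was lost without its replicate 1 or control replicate 4 (adjusted p up to 0.0658) and the eATP call without each library other than eATP 2 h replicate 1 and control replicate 1 (up to 0.0915). The TGF-β call was also lost when only its 2 groups entered the fit. CACNG7 rose with eATP at 2 h (0.76 ± 0.23, 0.0488) with overlapping groups, a call lost without each library other than eATP 2 h replicate 4 and control replicate 3 (up to 0.156), and under 2 other settings. CACNB1, a beta subunit, fell with TGF-β at 2 h (-0.66 ± 0.19, 0.0251), a call lost without TGF-β 2 h replicate 3 or 4 or control replicate 1 or 2 (up to 0.0794), and when only its 2 groups entered the fit. With eATP at 2 h CACNB1 was not called, though its libraries (0.291 ± 0.0346 FPKM) all lay below the controls (0.404 ± 0.0305).

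Of the sodium channel genes, the pore genes SCN9A (0.778 ± 0.118 FPKM in the controls) and SCN8A (0.334 ± 0.0798) were not called. The 6 CLC genes, most of them for chloride-proton exchangers of endosomes and lysosomes, had no call against the controls: CLCN3 was at 5.06 ± 0.792, 5.78 ± 2.01, 6.29 ± 1.75 and 8.26 ± 0.964 FPKM with TGF-β at 6 h and 2 h and eATP at 6 h and 2 h, against 7.16 ± 1.44 in the controls, and CLCN7 stayed between 2.86 and 3.30 FPKM. Among the 7 anoctamins, ANO1, the calcium-activated chloride channel TMEM16A of secretory epithelia, rose with eATP at 6 h, to 0.324 ± 0.113 FPKM against 0.159 ± 0.0149 in the controls (1.04 ± 0.22 log2, adjusted p = 0.0126), with all 4 above the controls at 0.478, 0.221, 0.262 and 0.336. The call was lost without its replicate 1 (adjusted p = 0.057) and when only its 2 groups entered the fit. ANO8, which tethers the endoplasmic reticulum to the plasma membrane, fell with TGF-β at 6 h, to 0.593 ± 0.115 FPKM against 0.993 ± 0.132 (-0.66 ± 0.17, 0.0126).

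Both PMCA genes measured were called. ATP2B1 held 10.2, 9.88, 9.47 and 11.9 FPKM with TGF-β at 6 h, 7.38, 15.9, 15.7 and 13.3 with TGF-β at 2 h, 21.5, 22.1, 17.9 and 22.8 with eATP at 6 h and 30.8, 30.4, 30.8 and 29.7 with eATP at 2 h, against 21.5, 20.3, 16.2 and 20.7 in the controls. TGF-β lay below the controls at both times, eATP at 2 h above them, and eATP at 6 h among them. It fell with TGF-β at 6 h (-0.85 ± 0.16 log2, adjusted p = 0.000754) and 2 h (-0.57 ± 0.16, 0.021) and rose with eATP at 2 h (0.65 ± 0.16, 0.0122). Without replicate 1 of TGF-β at 2 h that fall was smaller and still called (-0.39, adjusted p = 0.0119), but without control replicate 1, 2 or 4 it was not (adjusted p up to 0.0694), nor when only the 2 groups compared entered the fit.

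ATP2B4, the second plasma membrane pump, fell with TGF-β at 6 h to 1.82 ± 0.219 FPKM, against 3.16 ± 0.545 in the controls (-0.72 ± 0.18 log2, adjusted p = 0.00898). It rose with eATP at 6 h to 5.5, 5.69, 3.65 and 5.80 FPKM (0.73 ± 0.18, 0.0331), where replicate 3 fell within the control range of 2.41 to 3.67 FPKM and the call was lost without each library other than eATP 6 h replicate 3 and control replicate 1 (adjusted p up to 0.111). That call was also lost under 3 other settings. Of the endoplasmic reticulum pumps, the abundant ATP2A2 was not called, at 37.3 ± 8.79, 34.5 ± 13.3, 39.3 ± 5.17 and 47.1 ± 2.24 FPKM with TGF-β at 6 h and 2 h and eATP at 6 h and 2 h, against 40.8 ± 5.14 in the controls. The scarcer ATP2A3 rose with TGF-β at 2 h to 1.06 ± 0.124 FPKM (0.49 ± 0.12 log2, adjusted p = 0.00758) and fell with eATP at 6 h to 0.556 ± 0.0701 (-0.44 ± 0.12, 0.0466), against 0.769 ± 0.0541 in the controls; the first call was lost when only its 2 groups entered the fit and the second without each of the 8 libraries in turn (up to 0.152) and under 6 other settings. ATP2C2, a secretory pathway pump, fell with TGF-β at 6 h (0.0337 ± 0.0138 FPKM against 0.108 ± 0.0144; -1.52 ± 0.37 log2, adjusted p = 0.00691), while ATP2C1 was not called.

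The machinery of calcium release and store-operated entry had no call against the controls. STIM1, the store sensor, was at 2.98 ± 0.49, 3.13 ± 1.03, 3.35 ± 0.485 and 4.10 ± 0.206 FPKM with TGF-β at 6 h and 2 h and eATP at 6 h and 2 h, against 3.79 ± 0.446 in the controls. ORAI1, the pore, was at 5.97 ± 0.416, 6.22 ± 2.02, 6.45 ± 2.86 and 6.00 ± 0.213 FPKM, against 7.19 ± 0.138, and the IP3 receptor ITPR3 at 7.70 ± 1.21, 6.75 ± 2.11, 8.48 ± 1.23 and 7.33 ± 0.813 FPKM, against 7.08 ± 1.11. ITPR2 was scarcer, at 0.529 to 0.674 FPKM in the group means. For ORAI1, 1 eATP library at 6 h held 2.26 FPKM while the other 3 held 7.19 to 8.63. ORAI3, named here after its values were seen, split within groups, with 2.04 FPKM in replicate 3 of eATP at 6 h against 0.0594 to 0.365 in the other 3, and 0.346 in replicate 3 of TGF-β at 6 h against 1.86 to 2.43. Its longest single exon overlap with another gene on the same strand is 1135 bases. Over the CLC, sodium pore, store-operated entry and IP3 receptor groups (16 members, 64 tests against the controls), edgeR called 0, with 7 at an unadjusted p under 0.05; DESeq2 called 1 (a CLC gene, with TGF-β at 6 h) and limma 0. This does not show that they did not change.

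**Figure D5:**
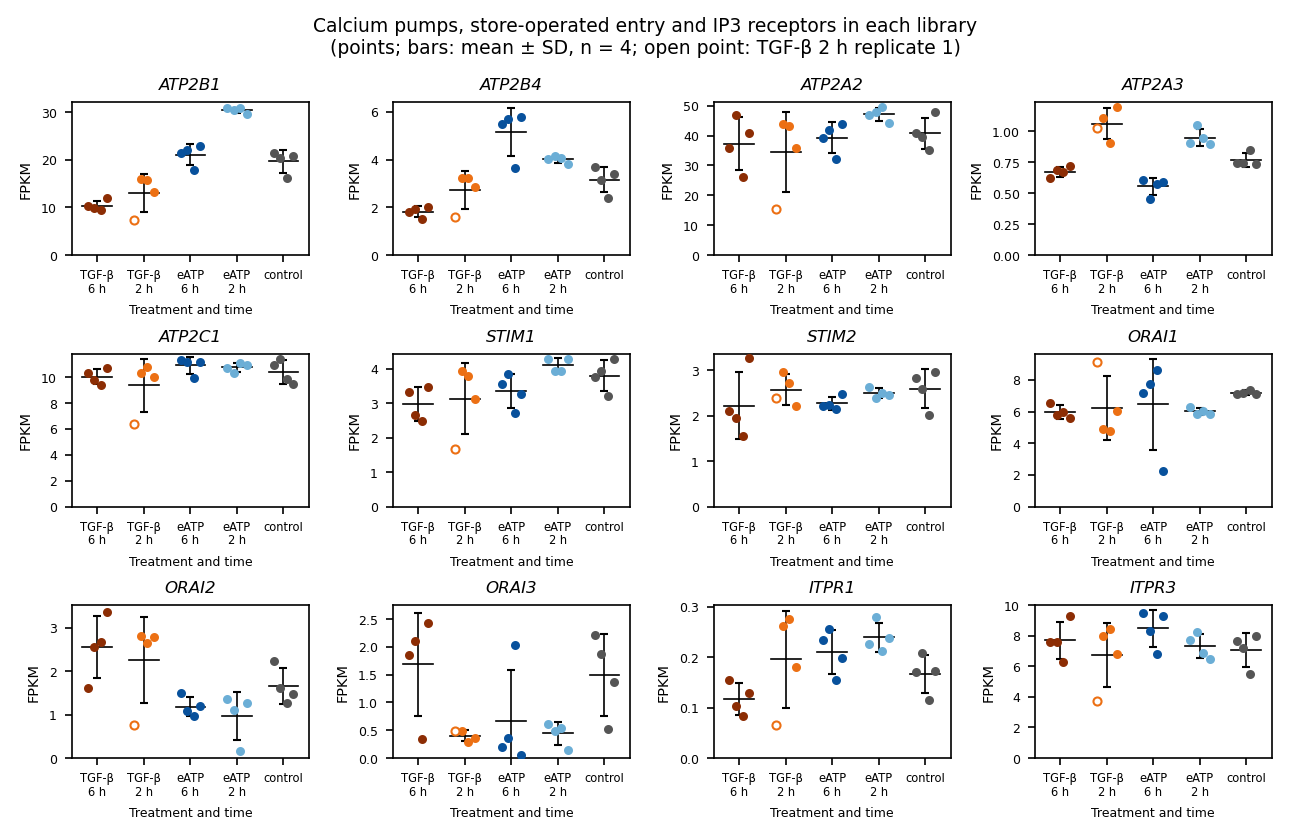
FPKM of 12 calcium pump, store-operated entry and IP3 receptor genes in each of the 20 libraries (points), with the mean and SD of each group of 4 (lines) and replicate 1 of TGF-β at 2 h as an open point; axes start at 0. ATP2B1 lies at 29.7 to 30.8 FPKM with eATP at 2 h and at 9.47 to 11.9 with TGF-β at 6 h, against 16.2 to 21.5 in the controls, while ATP2A2 and STIM1, among others, had no call against the controls.

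Compared directly, TGF-β at 6 h had 12 members higher and 15 lower than eATP at 6 h (8.97% and 8.66% of all genes), and at 2 h 10 higher and 8 lower (4.93% and 4.16%). KCNA7 had 206 counts in all with TGF-β and 28 with eATP at 6 h (8.52-fold, 95% exact interval 5.72 to 13.1 for counting error, adjusted p = 0.0301); the call was lost without TGF-β 6 h replicate 1, 3 or 4 or eATP 6 h replicate 1 or 3 (up to 0.0706) and with no filter on low values. Apart from KCNA7 and KCNJ8, with few counts, the widest differences at 6 h, as log2 of TGF-β over eATP, were in TRPC6 (-2.93 ± 0.13, adjusted p = 1.3e-11), KCNJ2 (-2.41 ± 0.17, 7.58e-09), KCNV1 (-2.04 ± 0.19, 2.67e-07) and, in the other direction, KCNJ16 (1.8 ± 0.34, 0.000806) and CACNG4 (1.37 ± 0.10, 1.25e-08). KCNJ16 held 1.8, 2.54, 2.37 and 2.99 FPKM with TGF-β at 6 h, all above the 4 eATP libraries given earlier. KCNK5 (-1.47 ± 0.16, 1.34e-06), ATP2B4 (-1.45 ± 0.18, 1.08e-05), ANO1 (-1.44 ± 0.23, 0.000113), KCNK1 (-1.35 ± 0.09, 4.33e-09), TRPA1 (-1.04 ± 0.13, 1.13e-05), KCNF1 (-0.98 ± 0.18, 0.000541) and ATP2B1 (-0.97 ± 0.16, 0.000193) were also lower with TGF-β. LRRC38 (1.33 ± 0.25, 0.000725), KCNK3 (0.98 ± 0.16, 0.000207) and KCNN4 (0.72 ± 0.14, 0.000956) were higher. KCNJ8, encoding Kir6.1 of ATP-sensitive channels, had 0 counts in all 4 TGF-β libraries at 6 h and 61 in the eATP libraries, at least 17.6-fold lower against a floor of 3 counts over the group. The call (adjusted p = 0.0352) was lost without each library other than eATP 6 h replicates 1 and 3 (up to 0.0733), and under 3 other settings.

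At 2 h the members that differed most between the inducers were KCNA7 (115 counts in all with TGF-β and 0 with eATP, at least 40-fold higher against the same floor, adjusted p = 0.00196), KCNJ12 (1.8 ± 0.38 log2, 0.00348), KCNJ2 (-1.48 ± 0.17, 4.15e-06), KCNJ11 (1.28 ± 0.31, 0.0105), ATP2B1 (-1.22 ± 0.16, 2.69e-05), KCNV1 (-1.20 ± 0.19, 0.000188) and CACNG4 (1.16 ± 0.10, 1.9e-07). KCNJ11, encoding Kir6.2 and not called against the controls, held 0.647, 0.291, 0.411 and 0.387 FPKM with TGF-β at 2 h and 0.199, 0.164, 0.204 and 0.142 with eATP at 2 h. KCNK5 did not pass at 2 h (0.18 ± 0.15, adjusted p = 0.554). The KCNA7 call at 2 h was lost in limma on log2(FPKM + 1).

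Between the times, TGF-β at 6 h had 3 members higher and 15 lower than at 2 h (5.49% and 6.58% of all genes), and eATP at 6 h had 7 higher and 11 lower (6.01% and 6.57%). With TGF-β, TRPC6 (-1.68 ± 0.12 log2, adjusted p = 7e-08), KCNJ2 (-1.24 ± 0.17, 6.4e-05), KCNAB2 (-1.01 ± 0.21, 0.00319), KCNF1 (-0.97 ± 0.18, 0.0011) and KCNT2 (-1.78 ± 0.35, 0.00209) were lower at 6 h, and KCNG1 was higher (0.79 ± 0.14, 0.000642). Without replicate 1 of TGF-β at 2 h, 28 members were called in place of 18, and with only those 2 groups in the fit 7. The KCNF1 and KCNT2 calls were among those lost in that last fit. With eATP, KCNK5 was higher at 6 h (1.08 ± 0.15, 0.0001), as were TRPC6 (0.75 ± 0.12, 0.000294), CACNB1 (0.99 ± 0.19, 0.00139) and ANO1 (1.05 ± 0.22, 0.00334). Lower at 6 h were KCNJ16 (-1.53 ± 0.34, 0.00479), CACNA1G (-1.38 ± 0.18, 4.07e-05), CACNA1D, the L-type pore Cav1.3 (-1.15 ± 0.28, 0.00912), KCNK3 (-0.86 ± 0.16, 0.00124), ATP2A3 (-0.77 ± 0.12, 0.000175) and CACNG6 (-0.77 ± 0.17, 0.00496). The members lower at 6 h with both inducers were ATP2A3, CACNG6, CACNG7, KCNF1, KCNK3 and KCNT2, and of these ATP2A3 (-0.60 ± 0.12 with TGF-β, 0.00164) and KCNK3 (-0.66 ± 0.16 with TGF-β, 0.00922) were called without each library in turn in both comparisons.

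The change from 2 h to 6 h differed between the inducers in 10 members, against 6.12% of all genes (11.1% of the members). As the 6 h over 2 h log2 change with TGF-β minus that with eATP, the values were -2.43 ± 0.17 for TRPC6 (adjusted p = 8.92e-08), -1.65 ± 0.22 for KCNK5 (8.84e-05), -0.93 ± 0.23 for KCNJ2 (0.0198) and -0.53 ± 0.13 for KCNK1 (0.0173). These 4 calls held without each of the 16 treated libraries in turn. TRPC6 and KCNK5 went down with time under TGF-β and up under eATP, each change past its own test; the KCNK5 change with TGF-β (-0.57 ± 0.15, adjusted p = 0.0202) was lost without TGF-β 6 h replicate 3 or 4 (up to 0.0592).

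Other genes of calcium signalling and other channels were read from lists that hold no member. Of 61 calcium signalling genes measured, TGF-β had 15 higher and 9 lower at 6 h and 8 higher and 3 lower at 2 h, and eATP had 1 higher and 0 lower at 6 h and 8 higher and 2 lower at 2 h. With TGF-β at 6 h these are 24.6% higher and 14.8% lower (8.4% and 7.76% of all genes) and at 2 h 13.1% and 4.92% (7.25% and 5.67%). With eATP at 6 h 1.64% were higher (1.71% of all genes) and at 2 h 13.1% higher and 3.28% lower (4.79% and 3.79%). The lower shares at 2 h and the higher share with eATP at 6 h were near or under the background. Their median log2 fold changes were 0.08, 0.09, 0.02 and 0.06 in that order. The calcium-regulated transcription factor NFATC2 rose with TGF-β at 2 h (to 0.859 ± 0.156 FPKM; 1.31 ± 0.14 log2, adjusted p = 1.57e-06) and with eATP at 2 h (to 1.77 ± 0.151 FPKM; 2.35 ± 0.14, 1.89e-09), against 0.350 ± 0.0195 FPKM in the controls, and NFATC1 rose with TGF-β at 2 h (1.69 ± 0.17, 1.17e-06). With eATP at 2 h NFATC1 held 0.52 to 0.715 FPKM, also above the 0.212 to 0.364 FPKM of the controls. The kinase gene CAMK1G rose with TGF-β at 6 h (3.78 ± 0.76, 0.00138) and eATP at 2 h (2.62 ± 0.73, 0.0316), with a control mean of only 0.0167 FPKM. It reached 0.1 FPKM in treated libraries alone, so it entered the test through groups where it was high, and its calls are description. SLN, encoding the SERCA inhibitor sarcolipin, rose with TGF-β at 6 h (2.88 ± 0.50, 0.000393), as did the scaffold gene HOMER3 (1.31 ± 0.19, 6.12e-05). ITPKB, encoding an IP3 kinase, rose with TGF-β at 2 h (0.75 ± 0.11, 0.000122) and fell with eATP at 2 h (-1.05 ± 0.11, 3.68e-06), where its relative ITPKC rose (1.01 ± 0.11, 5.1e-06). CAMKK1 was the gene called with eATP at 6 h, higher (0.45 ± 0.09, 0.00718), and it fell with eATP at 2 h (-0.69 ± 0.09, 2.87e-05).

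Of 43 other channel genes, TGF-β had 4 higher and 7 lower at 6 h and 6 higher and 1 lower at 2 h, and eATP had none at 6 h (edgeR 0, DESeq2 1, limma 0, and 5 at an unadjusted p under 0.05) and 3 higher and 1 lower at 2 h. With TGF-β at 6 h these are 9.3% higher, near the 8.4% of all genes, and 16.3% lower (7.76% of all genes), and at 2 h 14% and 2.33% (7.25% and 5.67%). With eATP at 2 h they are 6.98% and 2.33% (4.79% and 3.79%). Their medians were -0.05, 0.12, -0.05 and 0.08 in the same order. CFTR, the chloride channel of cystic fibrosis, fell with TGF-β at 6 h (-2.66 ± 0.47 log2, adjusted p = 0.000466), as did the acid-sensing channel ASIC2 (-2.77 ± 0.59, 0.00256), both scarce, with control means of 0.062 and 0.108 FPKM. TMC7 rose with TGF-β at 6 h (1.49 ± 0.15, 5.55e-07) and 2 h (1.83 ± 0.15, 7.86e-08). SCNN1A, the alpha subunit of the epithelial sodium channel, rose at 2 h with TGF-β (0.64 ± 0.20, 0.041) and eATP (0.68 ± 0.20, 0.041).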

How the data were processed

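RNA-seq was done on 20 libraries of A549 cells, 4 for each of 5 conditions, grouped by the deposited labels. Among the authors' tools, HISAT2, StringTie and edgeR are listed in the processing notes of the submitters; neither versions nor a genome build were given in the sources used here. In the table deposited by the authors, each of 58825 genes has its count and its FPKM in every library (25387 genes had count 0 everywhere, and FPKM is mostly listed as 0.0001 where the count was 0). No column was left out.

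Genes at 0.1 FPKM or more in at least 4 libraries (20094) were tested on the deposited counts with the quasi-likelihood test of edgeR 4.0.16 (R 4.3.3), with TMM scaling, 1 model over 5 groups (15 residual degrees of freedom) and Benjamini-Hochberg adjustment over all genes tested, two-sided, at an adjusted p under 0.05. SE is the log2 fold change over the root of F. Alternatives used DESeq2 1.42.0, limma 3.58.1 on log2(FPKM + 0.1) or log2(FPKM + 1), other filters, only the compared groups, a replicate block and each library left out. The model code was tested on simulated data. Counting intervals are exact at 95% and, like the floor of 3 counts, cover counting error only.

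The members and lists were chosen with earlier results of these data known. Named genes are the members called against the controls, up to 6 in each comparison with values by library (largest change, at least 1 FPKM, no overlap), up to 2 highest members of each role with no call, the 10 highest in the controls and up to 4 called genes of each other list and comparison. Other genes, further values by library and the promoters shown were chosen after values were seen. Promoters are from RefSeq (GRCh38.p14). Transcript lengths and exon overlaps are from GENCODE v29, whose build need not be that of the counts. Some members are counted but not reported here by name.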

Additional observations from a re-analysis of the deposited data

Results flagged for a closer look

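The change between 2 h and 6 h under TGF-β minus that under eATP passed edgeR's interaction test in 10 members. On the log2 scale it was -2.43 for TRPC6, -1.65 for KCNK5, -0.93 for KCNJ2 and -0.53 for KCNK1, which passed without each treated library in turn. It was -2.04 for KCNJ12 (adjusted p = 0.0251), 0.95 for CACNA1G (0.0316), -0.97 for KCNJ14 (0.0334), -1.08 for KCNAB2 (0.0353), 1.72 for KCNJ16 (0.0354) and -0.89 for ATP2B4 (0.0464). These last 6 were lost without 5, 7, 8, 9, 11 and 14 of the 16 treated libraries in turn, with adjusted p up to 0.0654, 0.0714, 0.08, 0.0752, 0.0732 and 0.096.

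In 21 of 450 groups of 4 libraries, 1 library stood far from the other 3 by Dixon's test at 95%. Chance gives about 1 in 20 groups. Of the 21, 6 were in replicate 3 of eATP at 6 h, 5 in replicate 3 of the controls and 3 in replicate 1 of TGF-β at 2 h.

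In replicate 3 of eATP at 6 h, ATP2C1 (9.92 FPKM, against 11.2 to 11.3 in the other 3), ATP2B4 (3.65, against 5.5 to 5.8) and ITPR2 (0.449, against 0.633 to 0.637) were low. In the same library KCNAB3 (0.214, against 0.174 to 0.178), ORAI3 (2.04, against 0.0594 to 0.365) and LRRC26 (0.3, with no count in the other 3) were high. Elsewhere in eATP at 6 h, ANO8 was low in replicate 4 (0.752, against 1.02 to 1.05) and KCNMA1 high in replicate 1 (0.524, against 0.261 to 0.287). In replicate 1 of TGF-β at 2 h, CLCN4 (1.54, against 2.32 to 2.44), CACNA2D1 (2.16, against 3.76 to 3.79) and ORAI2 (0.77, against 2.65 to 2.81) were low.

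With TGF-β at 6 h, KCNH2 was high in replicate 2 (0.0814 FPKM, against 0.032 to 0.0372), KCNAB1 (0.131, against 0.0414 to 0.0525) and KCNMB3 (0.203, against 0.11 to 0.118) were high in replicate 1, and TRPM2 was low in replicate 4 (0.432, against 0.632 to 0.655). With eATP at 2 h, KCNK5 was high in replicate 2 (1.74, against 1.5 to 1.52). In replicate 3 of the controls, TRPM7 (4.47, against 7.94 to 8.19), TRPC1 (2.18, against 3.27 to 3.43) and KCNJ11 (0.183, against 0.332 to 0.352) were low, and ATP2A3 (0.85, against 0.737 to 0.746) and KCNA7 (0.00964, with no count in the other 3) were high.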

How the results depend on the processing

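Of the 68 calls of members against the controls, 50 held without each library in turn, 46 under every other setting and 43 under all, and none reversed. With a minimum of 1 FPKM, which left 42 members, the calls were 12 with TGF-β at 6 h (20 in the report), 12 with TGF-β at 2 h (24), 11 between the eATP times (18) and 11 between the inducers at 2 h (18). With only the compared groups in the fit there were 14 with TGF-β at 2 h, 7 between the TGF-β times (18) and 5 for the interaction (10). DESeq2 gave 28 between the TGF-β times, and no filter gave 6 for the interaction; the cause was not tested. The KCNJ2 interaction was lost in both limma fits. Leaving out 1 library gave 20 to 25 calls with TGF-β at 6 h, 19 to 25 with TGF-β at 2 h, 6 to 12 with eATP at 6 h (6 without control replicate 2 or 4) and 9 to 18 with eATP at 2 h (9 without eATP 2 h replicate 3 or control replicate 2, against 14). It gave 15 to 28 between the TGF-β times (28 without TGF-β 2 h replicate 1), 12 to 25 between the eATP times (12 without eATP 2 h replicate 1 or 3), 20 to 31 between the inducers at 6 h, 14 to 18 between them at 2 h and 4 to 11 for the interaction (4 without TGF-β 6 h replicate 4). Leaving out TGF-β 2 h replicate 1 where that group was not compared was chosen after seeing the data, as were the alternatives for single members between the times, between the inducers and in the interaction. Same-numbered libraries mostly deviated together little (6 of 40 pairs with r over 0.1, r from -0.222 to 0.198 over 13854 genes, and 15 pairs best with their own number). Among eATP at 6 h, TGF-β at 6 h and the controls, however, replicates 3 correlated at 0.118 to 0.198 and replicates 4 at 0.086 to 0.109. Each of these pairs was best with its own number. With a replicate block the calls were 20, 24, 8 and 12 with TGF-β at 6 h and 2 h and eATP at 6 h and 2 h, 18 and 15 between the TGF-β and eATP times, 23 and 16 between the inducers at 6 h and 2 h, and 7 for the interaction. Members under 0.1 FPKM rest on few counts.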
